A study of Bos taurus with 4 samples.

Results

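HOX cluster genes were examined on arrays of bovine blastocysts. Their members were all embryo probes whose platform annotation gives a gene symbol beginning with HOXA, HOXB, HOXC or HOXD followed by a digit. That rule took 25 of 43794 embryo probes, which stand for 24 of 15229 annotated genes: 8 probes of the HOXA cluster, 7 of HOXB, 6 of HOXC and 4 of HOXD. HOXA9 has 2 probes and every other gene has 1. The rule used no measured value. RefSeq's bovine gene table (ARS-UCD2.0), from which only gene names, types, order and spans were taken, lists 39 HOX genes. Of these, 15 have no probe under their symbol here. Probe sequences were not used here, so the stretch of transcript that each probe reads is not known.

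HOX genes encode homeodomain transcription factors that give cells their position along the body axis. In mammals they lie in 4 clusters, and genes of different clusters that descend from one ancestor share a paralogue number, from 1 at the end used for head-side structures to 13 at the tail-side end. In the mouse embryo the clusters are opened in that order during gastrulation, after the blastocyst stage, under retinoic acid, WNT and CDX input, and before that they are held down by Polycomb proteins. HOX proteins bind DNA together with TALE homeodomain cofactors of the PBX and MEIS families.

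Blastocysts are preimplantation embryos made of trophectoderm, the source of the placenta, around an inner cell mass that gives rise to the fetus. The groups were blastocysts sired with sperm of bulls aged 10 months and blastocysts sired with sperm of bulls aged 16 months, the design naming 4 bulls collected at both ages. All embryos came from in vitro maturation, fertilisation and culture with oocytes from slaughterhouse ovaries, and all RNA was amplified before labelling. Each of the 4 arrays held both ages in opposite dyes, with 10 months in Cy5 on replicates 1 and 2 and in Cy3 on replicates 3 and 4. The labels call the arrays biological replicates but do not tie an array to a bull or state how many embryos were pooled. The errors below therefore describe the spread between arrays, combined in part with that of other probes. Since whole embryos were measured, fewer cells of a type and less RNA per cell cannot be told apart.

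A reading is the spot median of 1 probe in 1 channel of 1 array, so each probe has 8, of which 4 are at 10 and 4 at 16 months. A reading was called above the negative control when it exceeded the median of the 153 (-)3xSLv1 control spots of its channel by more than 2 median absolute deviations. The threshold is lenient, since 0.654% to 11.8% of the control spots themselves passed it, depending on the channel. Cy5 and Cy3 intensities have different scales, and probes differ in how well they bind, so a reading is compared with its own negative control and not with another probe. The labelled tissue was checked with marker genes. All 14 measured trophectoderm genes, 7 inner cell mass genes and 7 primitive endoderm genes had a probe above the control at both ages on all 4 arrays. All 7 sperm genes had some reading above the control, as all but 951 of the 15229 annotated genes did. However, 0 of these 7 did so at both ages on all 4 arrays. Of 19 cumulus and granulosa genes 7 did, and of 11 leukocyte and erythroid genes 2 did, where 59.2% of all annotated genes did. Since HOX genes are also used in some of those tissues, the part of other cells in the HOX signal was not tested. Of 7 gastrulation genes 2 did (GSC and TBX6), and brachyury (T), a defining gene of mesoderm, was above the control in 0 of 8 readings.

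Most HOX probes lay at or close to the negative control in blastocysts of either age. A total of 7 of 25 probes, those of HOXA7, HOXA9, HOXB2, HOXB4, HOXB9, HOXC4 and HOXD11, were above the control at both ages on all 4 arrays, against 46.7% of all embryo probes and 53.7% of the embryo probes with a gene symbol. At 10 months alone 8 probes were above the control on all 4 arrays, against 52.2% of embryo probes, and at 16 months alone 9 were, against 52.3%. The 2 sets shared the 7 probes above. HOXA4 joined them at 10 months only, and HOXC13 and the second HOXA9 probe joined them at 16 months only, differences in calls that were not tested as such. Of the 200 single HOX readings 100 were above the control, 51 at 10 months and 49 at 16 months, where 69.8% of all embryo readings were. By dye the split was wider, with 59 of 100 Cy5 readings and 41 of 100 Cy3 readings above the control. The same was seen for all embryo probes, with 73.2% to 79.3% of them above in Cy5 and 59.8% to 67.7% in Cy3.

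**Figure D1:**
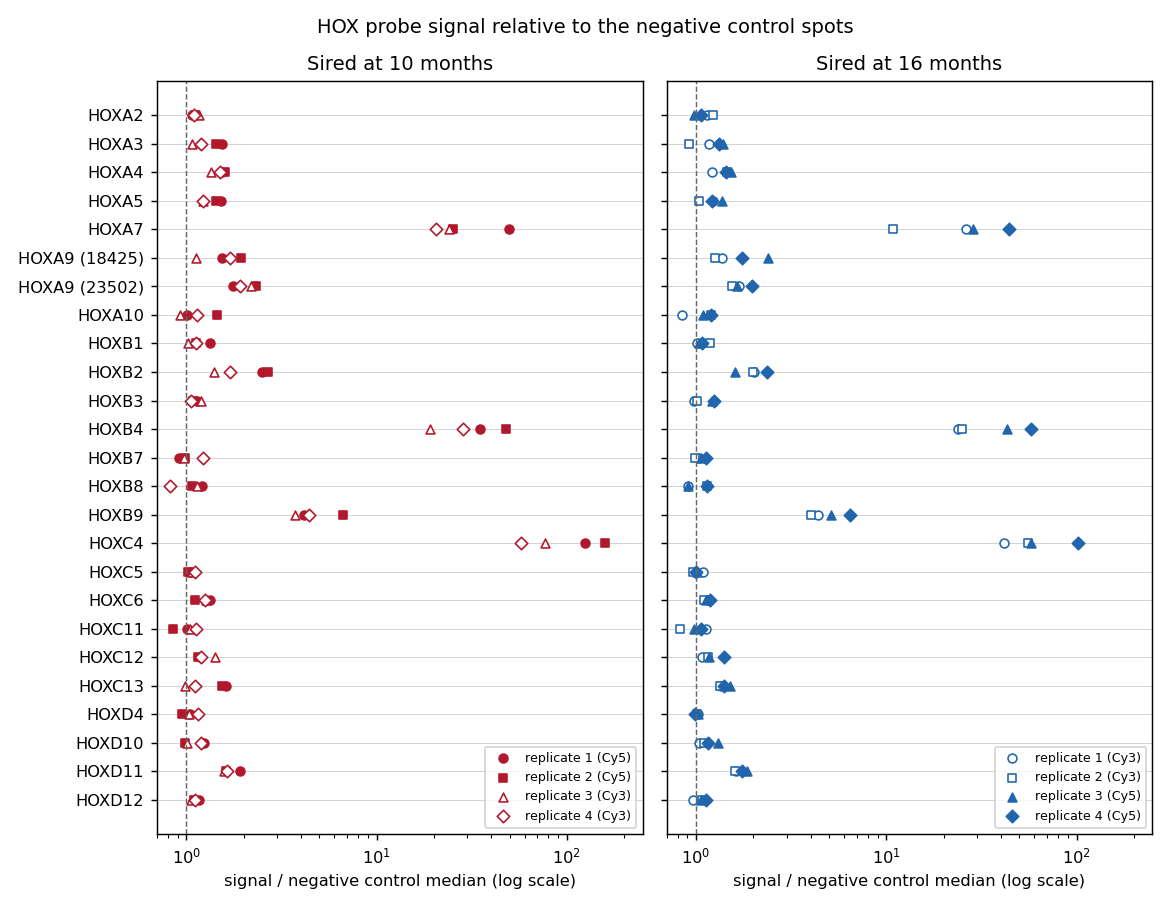
Signal of the 25 HOX probes divided by the negative control median of the same array and channel, on a log axis, for blastocysts sired at 10 months (left) and at 16 months (right). Each symbol is 1 array, filled for Cy5 and open for Cy3, and the dashed line marks the negative control median. HOXC4, HOXA7 and HOXB4 stand at 10.8 to 158 times the control, HOXB9 at 3.74 to 6.64 times, and the other probes at no more than 2.69 times.

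A stricter view left 4 HOX genes. HOXA7, HOXB4, HOXB9 and HOXC4 exceeded even the highest of the 153 negative control spots in all 8 readings, which 26.8% of all embryo probes did. HOXA9, HOXB2 and HOXD11, whose readings lay at 1.39 to 2.69 times the negative control median, did not do so in all 8.

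HOXC4 was above the control in all 8 readings by a wide margin. The gene encodes a paralogue group 4 protein known from the cervical skeleton and from lymphocytes. The platform annotation pairs this probe, EMBV3_22380, with HOXC4 by symbol alone and gives no accession, as for all 25 HOX probes, so its target was not checked. Its intensities were 9927, 9640, 14853 and 12941 in blastocysts sired at 10 months on replicates 1 to 4, against 9743, 10875, 5952 and 7092 in those sired at 16 months. In Cy5 both 10-month readings exceeded both 16-month readings, and the same held in Cy3. Here and for the genes below, the ages within a dye lie on different arrays, and intensities are not normalised between arrays. The median Cy5 signal of embryo probes ran from 94 to 151 over the arrays. As multiples of the negative control median the HOXC4 readings were 124, 158, 76.6 and 57.5 at 10 months and 41.5, 55.2, 57.8 and 101 at 16 months. In the RefSeq gene order HOXC5 and HOXC6 follow HOXC4, and their probes read at 0.959 to 1.32 times the control.

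HOXA7, a central HOX gene, had intensities of 3993, 1543, 4630 and 4601 in blastocysts sired at 10 months, against 6179, 2122, 2921 and 3078 in those sired at 16 months. The ranges of the ages overlapped in both dyes, and replicate 2 was lowest at either age. HOXB4, known for promoting self-renewal of blood stem cells, had 2794, 2925, 3699 and 6420 at 10 months and 5591, 4929, 4427 and 4012 at 16 months. Both 10-month Cy5 readings of HOXB4 lay below both 16-month Cy5 readings, while the Cy3 readings overlapped. In the RefSeq table the span of HOXB3 overlaps that of HOXB4, and the HOXB3 probe read at 0.979 to 1.24 times the control.

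HOXB9, which shapes the rib cage in mice, was above the control at a lower multiple. Its intensities were 334, 405, 725 and 996 in blastocysts sired at 10 months and 1029, 796, 527 and 449 in those sired at 16 months, that is 3.74 to 6.64 and 4.04 to 6.41 times the negative control. All 4 Cy3 readings were higher than those in Cy5 with the same sire age, as the scales of the dyes differ, and within each dye the 16-month readings were the higher ones on Cy5 only.

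**Figure D2:**
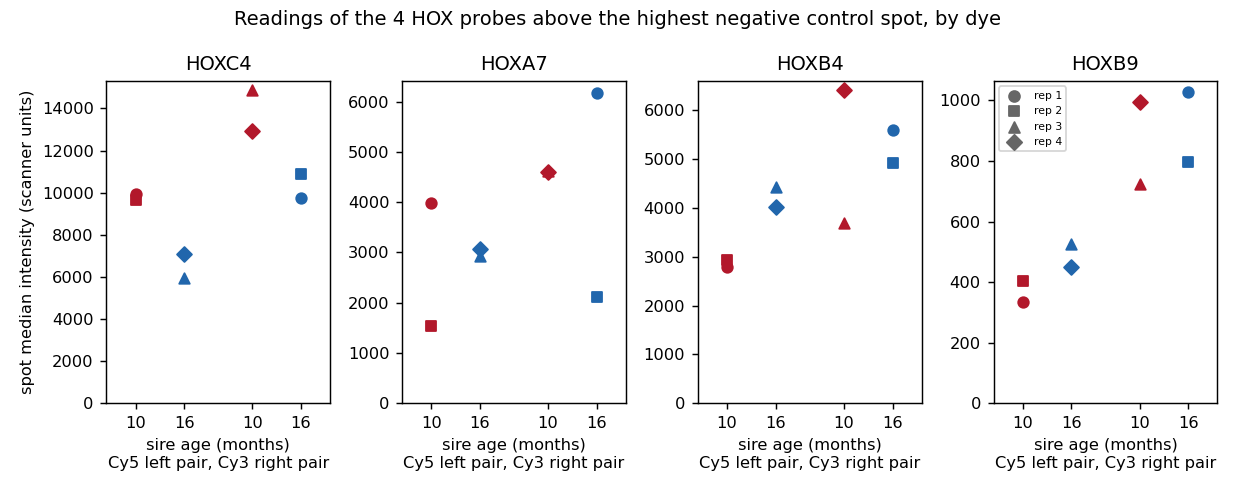
Spot median intensities, on linear axes from 0, of the 4 HOX probes that exceeded the highest negative control spot in all readings. In each panel the left pair of columns is Cy5 and the right pair Cy3, with blastocysts sired at 10 months left of those sired at 16 months, and each symbol is 1 array. Only in the HOXC4 panel do the 10-month points lie above the 16-month points in both dyes. Within a dye the ages lie on different arrays, and the intensities are not normalised between them.

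The remaining genes with 8 of 8 readings above the control were close to it. HOXB2, a hindbrain gene, read at 2.50, 2.69, 1.39 and 1.69 times the negative control at 10 months and 2.01, 2.00, 1.60 and 2.37 times at 16 months. HOXD11, which with HOXA11 forms the forearm and kidney in mice, read at 1.92, 1.62, 1.57 and 1.64 times at 10 months and 1.62, 1.60, 1.85 and 1.74 times at 16 months. HOXA9, a blood progenitor gene that acts with MEIS1, has 2 probes. Probe EMBV3_23502 read at 1.75 to 2.33 times at 10 months and 1.55 to 1.96 times at 16 months. Probe EMBV3_18425 read at 1.12 to 1.93 times at 10 months and 1.26 to 2.38 times at 16 months, and was below the threshold once, at 10 months on replicate 3.

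Another 12 probes had between 1 and 7 readings above the control, as did 43.3% of all embryo probes. HOXA4 had 7, HOXA5, which patterns the lung and airway, had 6, and HOXC13, a hair and nail gene, had 6. HOXA3, needed for thymus and parathyroid, had 4 and HOXC12 had 4. HOXC6 had 3, all at 10 months, at 1.11 to 1.32 times the control against 1.10 to 1.19 times at 16 months. HOXB3 and HOXD10 had 2 each, and HOXA10, known for uterine patterning and implantation, HOXB1, the rhombomere 4 gene, and HOXB8 had 1 each. The second HOXA9 probe completes the 12. All 4 called readings of HOXA3 were Cy5, as were those of HOXB3, HOXD10, HOXA10, HOXB1 and HOXB8. The dye and these weak calls moved together, and its part in them was not tested.

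No reading was above the control for 6 probes, against 9.94% of all embryo probes. They were HOXA2, a pharyngeal arch gene, HOXB7, HOXC5, HOXC11, HOXD4 and HOXD12, at 0.822 to 1.23 times the negative control. Expression of these genes was not detectable with these probes, which is not evidence that they are silent.

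By cluster, 41 of 64 HOXA readings were above the control, 28 of 56 HOXB readings, 21 of 48 HOXC readings and 10 of 32 HOXD readings. By position, 15 of 40 readings were above it for paralogues 1 to 3, 41 of 80 for paralogues 4 to 8 and 44 of 80 for paralogues 9 to 13. Every cluster and every position group lay below the 69.8% of all embryo readings that were above the control. Paralogue group 9 had the highest share among groups with more than 1 probe, with 23 of 24 readings over 2 HOXA9 probes and 1 HOXB9 probe. Of these probes only that of HOXB9 exceeded the highest control spot in all 8 readings. Group 4 followed with 23 of 32, from HOXA4, HOXB4 and HOXC4 but not HOXD4, which had 0 of 8. The probes of 1 gene family differ in sequence and binding, and these shares describe probes and were not tested. In the RefSeq gene order HOXA7 and HOXA9 are neighbours, and HOXA7 and 1 of the 2 HOXA9 probes were above the control in all 8 readings. HOXA4 and HOXA5 are another neighbouring pair, with 7 and 6 of 8 readings. HOXB4 stood beside HOXB3 with 2 of 8 readings, and HOXC4 beside HOXC5 with 0 of 8.

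**Figure D3:**
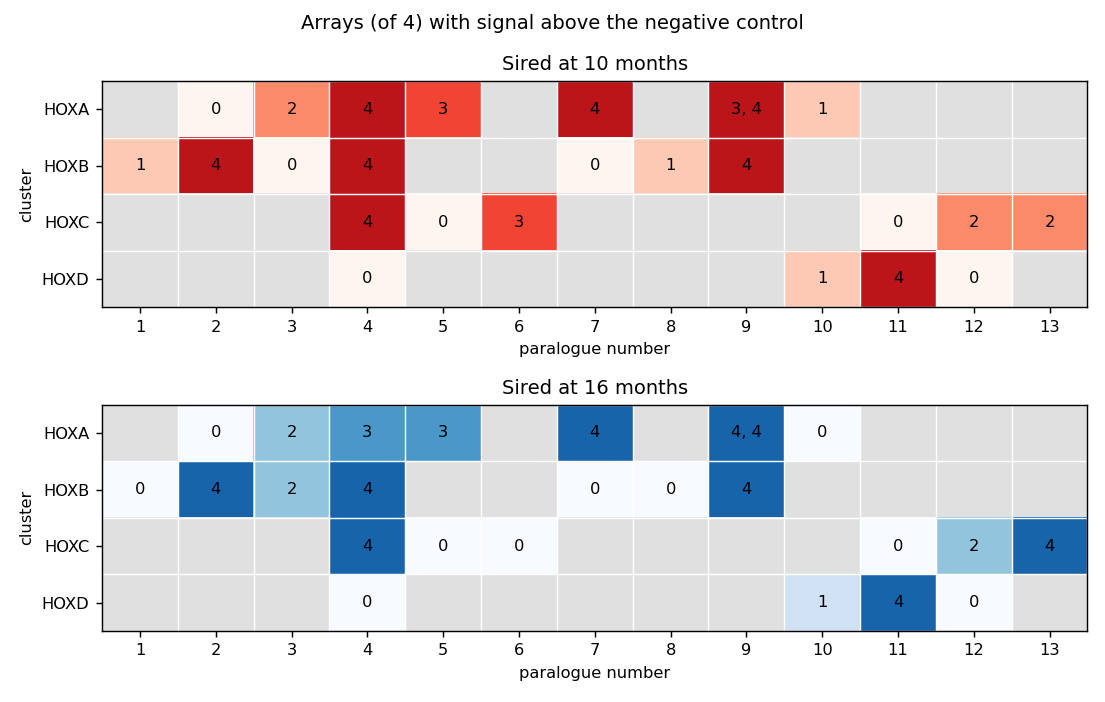
Number of arrays, of 4, on which each HOX probe was above the negative control, by cluster (rows) and paralogue number (columns), for blastocysts sired at 10 months (top) and at 16 months (bottom). Grey cells are genes without a probe or numbers that a cluster lacks, and HOXA9 shows both of its probes. Cells at 4 are scattered over the clusters, with 8 probes at 10 months and 9 at 16 months.

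The effect of sire age was tested as the log2 ratio of 10 over 16 months, fitted with limma over the 4 arrays with a dye term and adjusted by Benjamini-Hochberg over all 36325 probes tested. A probe was tested if it was above the control in either channel on at least 2 arrays, which 16 HOX probes were, against 82.9% of embryo probes. No HOX probe passed an adjusted p of 0.05, where 0% of all tested probes did, and the smallest adjusted p of a HOX probe was 0.957. At an unadjusted p under 0.05 there was 1 HOX probe (HOXC4, higher at 10 months), against 3.96% of tested probes, or 2.05% counting the higher ones alone. Fitted values were above 0 for 9 of the 16 HOX probes, against 49.4% of all tested probes, and their median was 0.03, against -0.0018 over all tested probes. The HOX median was 0.10, -0.06, 0.01 and 0.16 on replicates 1 to 4, before removal of the dye effect. All 4 arrays had the same sign for 2 of the 16, against 9.37% of all tested probes. HOXC4 was positive on all 4, as were 4.61% of tested probes, and HOXB2 was negative on all 4, as were 4.76%. Within 0.20 of 0 on the log2 scale lay 13 of the 16 fitted HOX values, against 80.8% of all tested probes.

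HOXC4 was higher in blastocysts sired at 10 months on 4 of 4 arrays. Its log2 ratio was 0.35, 0.07, 1.42 and 0.62 on replicates 1 to 4, and the fitted value was 0.61 ± 0.16 (SE, 4 arrays), a 1.53-fold difference with a 95% interval of 1.19 to 1.97-fold. The unadjusted p of limma was 0.00479 and the adjusted p was 0.957, so the difference did not pass. As for all probes, the SE, interval and p borrow spread from other probes, with 5.72 prior and 2 residual degrees of freedom. The SD of the 4 array values of HOXC4 was 0.58, dye effect included. Both an unadjusted p under 0.05 and a ratio of at least 1.5-fold toward 10 months were met by 0.127% of tested probes. The mean log2 ratio was 0.21 on the arrays with 10 months in Cy5 and 1.02 on those with 10 months in Cy3, a dye effect fitted at -0.40 (Cy5 over Cy3). Replicate 3 gave the highest ratio. Leaving that array out brought the fitted value to 0.41, with a limma adjusted p of 0.669, and reading it against its recorded dyes brought it to 0.14. Without replicate 4 it was 0.82 with an adjusted p of 0.0128, a fit in which 5.11% of all probes passed and replicate 3 stands alone for its dye orientation.

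HOXB2 was lower at 10 months on 4 of 4 arrays by small amounts, at -0.08, -0.09, -0.05 and -0.15. Its fitted value was -0.09 ± 0.11 (SE, 4 arrays) with a limma adjusted p of 0.967, and the 95% interval of the ratio ran from 0.782 to 1.13-fold. The SE borrows spread from other probes, so it is larger than the SD of those 4 values, which was 0.044.

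HOXA7 and HOXB4 did not differ beyond the spread between arrays. HOXA7 had log2 ratios of -0.14, 0.10, 0.70 and 0.13 and a fitted value of 0.20 ± 0.14 (SE, 4 arrays), with replicate 3 the highest and a 95% interval of 0.918 to 1.43-fold. HOXB4 had -0.46, -0.33, -0.22 and 0.29 and a fitted value of -0.18 ± 0.13, negative on 3 of 4 arrays, with an interval of 0.714 to 1.09-fold. The limma adjusted p of both was 0.957. Without replicate 3 HOXA7 was at 0.055 and HOXB4 at -0.050, and without replicate 4 they were at 0.34 and -0.31.

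HOXB9 split by dye orientation. Its log2 ratios were -0.69 and -0.22 on the arrays with 10 months in Cy5 and 0.33 and 0.36 on those with 10 months in Cy3. The fitted age value was -0.06 ± 0.13 (SE, 4 arrays), with an interval of 0.782 to 1.18-fold, and the dye effect was -0.40. HOXD11 had -0.0050, -0.38, 0.15 and 0.23 and a fitted value of -0.00045 ± 0.12, with an interval of 0.820 to 1.22-fold. For both genes the arrays of opposite dye orientation lay on opposite sides of 0.

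The 2 HOXA9 probes went opposite ways on replicate 3. Probe EMBV3_23502 had log2 ratios of -0.24, 0.11, 1.02 and 0.43, with a fitted value of 0.33 ± 0.14 (SE, 4 arrays). Probe EMBV3_18425 had 0.05, 0.39, -1.12 and 0.30, with a fitted value of -0.09 ± 0.22. On replicate 3 one probe was therefore 1.02 and the other -1.12, while on replicates 2 and 4 both were above 0. The mean of both fitted values was 0.12, and neither passed (limma adjusted p = 0.957 and 0.985). The SD of the log2 ratio over the tested HOX probes was 0.64 on replicate 3 and 0.26 to 0.31 on the other arrays, and over all tested probes it was 0.47 on replicate 3 and 0.30 to 0.32 on the others.

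The other tested members had fitted values between -0.23 and 0.17 on the log2 scale, none past the test. HOXA5 was at 0.25, 0.43, -0.07 and 0.09 on replicates 1 to 4, with a fitted value of 0.17 ± 0.12. HOXC6 was at 0.18, -0.07, 0.28 and 0.18, with a fitted value of 0.14 ± 0.12. HOXC13 was at 0.14, -0.04, -0.70 and -0.31, with the lowest fitted value of all HOX probes, -0.23 ± 0.13. HOXD10 was at 0.28, -0.32, -0.40 and 0.12, with a fitted value of -0.08 ± 0.15. In each of these 4 genes the arrays differed in sign. HOXA3, HOXA4, HOXB3 and HOXC12 lay between 0.0033 and 0.13. The 9 untested HOX probes had single-array log2 ratios between -0.46 and 0.58, and 0 of the 9 had the same sign on all arrays.

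The 95% interval of the ratio stayed within 2-fold of equality for all 16 tested HOX probes, against 99.4% of all tested probes, and within 1.5-fold for 13, against 87.2%. The probes whose interval reached past 1.5-fold were HOXC4 and both HOXA9 probes. An offset of 50 intensity units, added in the background correction, pulls dim ratios toward 0, so near the negative control these intervals describe array ratios and not RNA.

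**Figure D4:**
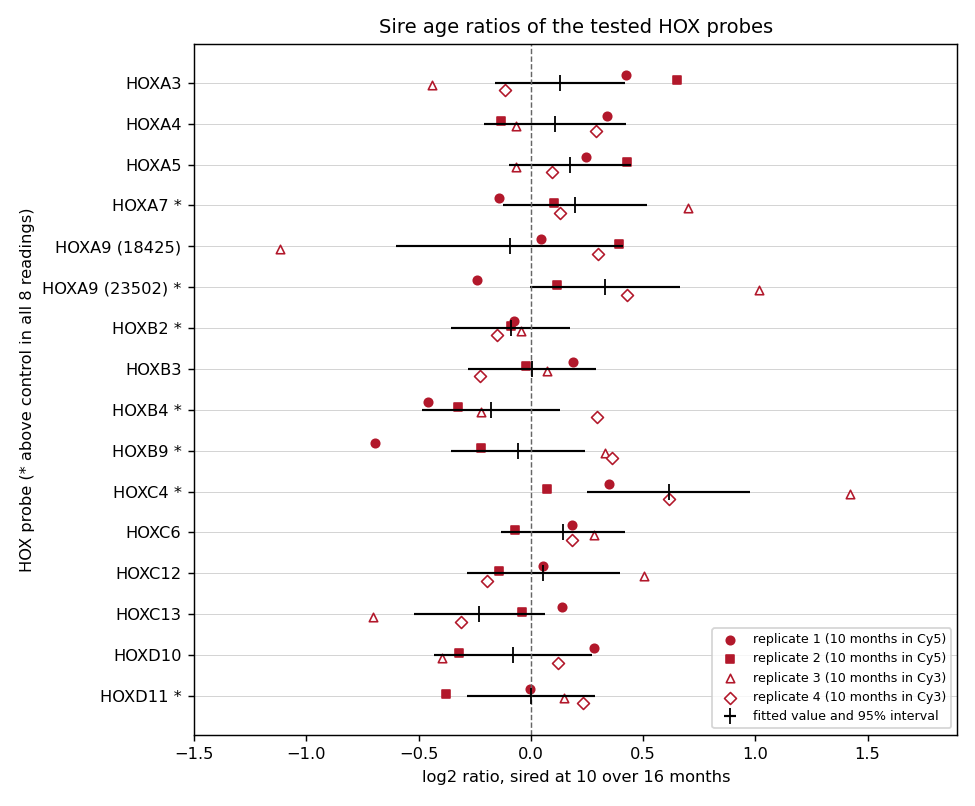
Log2 ratio of blastocysts sired at 10 over 16 months for the 16 tested HOX probes. Symbols are single arrays, filled where 10 months was in Cy5 and open where it was in Cy3, and black bars give the fitted value with its 95% interval. The interval of HOXC4 lies above 0, from 0.25 to 0.98, before adjustment over all probes, and those of the other 15 probes include 0.

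Genes that act with HOX proteins or control the clusters were taken from fixed lists, each gene by its brightest tested probe, and 0 genes of any list passed the adjusted test (limma). Of 8 measured TALE cofactors, 4 were above the negative control at both ages on all 4 arrays, where 59.2% of all annotated genes were. These were PBX2, MEIS1, MEIS2 and PKNOX1. Fitted log2 ratios of the 6 tested cofactors ran from -0.11 (MEIS2) to 0.26 (PKNOX1), with a median of 0.02, and 0 reached an unadjusted p under 0.05. Of 5 CDX and ParaHox genes only CDX2, the trophectoderm regulator, was above the control in all readings, and the tested 5 ran from -0.10 (GSX2) to 0.19 (PDX1).

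Of the measured Polycomb genes, whose products keep HOX clusters silent, 23 of 29 were above the control at both ages on all 4 arrays, against 59.2% of all annotated genes. The list had a median log2 ratio of -0.04 over 29 tested genes, with 1 gene higher and 2 lower at an unadjusted p under 0.05, where 2.05% of tested probes were higher and 1.92% lower. CBX8, a subunit of Polycomb repressive complex 1, was at 0.51 ± 0.18, with 0.39, -0.21, 1.38 and 0.48 on replicates 1 to 4. AEBP2, a cofactor of complex 2, was at -0.53 ± 0.15, and the mean over its 3 tested probes was -0.27. Among 8 Trithorax and demethylase genes, which act against Polycomb, 6 were detected by that rule, the median was 0.0079, and the menin gene MEN1 was lowest at -0.38 ± 0.14. Of 17 retinoic acid genes 7 were detected by that rule, and the median over 15 tested was -0.03. The retinoic acid binding proteins CRABP2 and CRABP1 marked the ends of that list, at 0.43 ± 0.15 and -0.25 ± 0.15. Of 11 other regulators 7 were detected by that rule, near the 59.2% of all genes, with a median of -0.01 over 10 tested. At an unadjusted p under 0.05, which 2.05% of tested probes reached in that direction, 2 of the 10 were higher. These were GDF11, a ligand that sets the trunk-to-tail HOX boundary in mice, and HNRNPK, an RNA-binding protein. GDF11 was at 0.41 ± 0.13, with -0.06, -0.30, 1.26 and 0.74 on replicates 1 to 4, so its arrays split in sign by dye orientation. HNRNPK was at 0.50 ± 0.18, with 0.48, -0.14, 1.26 and 0.39, and the mean over its 3 tested probes was 0.16.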

How the data were processed

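RNA was amplified and dye-labelled, per the labels' protocols. The deposited scans hold raw foreground and background intensity per spot at 635 nm (Cy5) and 532 nm (Cy3), per the file headers. The authors' deposited value table holds log2 ratios, for which the submitters' processing notes name limma. It ran Cy5 over Cy3 (r = 0.978 to 0.991 with each array) and served as an alternative. Its column medians were -0.0057 to -0.016, and whether it was centred is unknown.

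From the scans, R 4.3.3 and limma 3.58.1 gave ratios from spot medians: normexp on local background (offset 50), set-aside spots left out, loess within arrays with controls at weight 0. Of 43794 embryo probes, 175 with a set-aside spot and 7294 dim ones were left out, leaving 36325. The fit (lmFit, eBayes) had a dye and an age coefficient (+1 or -1), 2 residual degrees of freedom and 5.72 from the prior. The number of arrays limits the precision. All arrays lay on 1 slide. The members, lists and settings were chosen with earlier results of these data known. Named were HOX probes above the control in all readings, those at an unadjusted p under 0.05 and the 5 highest and 5 lowest fitted values, and of other lists members with the highest or lowest values. Platform symbols can be outdated, but all 24 HOX symbols matched RefSeq names.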

Additional observations from a re-analysis of the deposited data

How the results depend on the processing

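The count of HOX probes past the adjusted test stayed at 0 under 11 other settings and ran from 0 to 1 when each array was left out. The count at an unadjusted p under 0.05 (limma) was 2 with spot means (HOXC13 and HOXD11), 2 without a filter on dim probes, 0 with the sign of replicate 3 turned, and 1 to 6 with an array left out. The 6 came without replicate 4, where 18.1% of all tested probes reached that p and 5.11% passed the adjusted test. The HOX median ran from -0.022 to 0.11 over these and the 4 fits that leave out an array, all within the spread between arrays. HOXC4 stayed positive in all 15, from 0.14 to 0.82, with adjusted p from 0.0128 to 1.00, and with spot means it was 0.47 at an unadjusted p of 0.123. Several small values changed sign, and the cause was not tested. With the sign of replicate 3 turned, HOXA7 was -0.059, HOXA9 (EMBV3_18425) 0.41, HOXB4 0.053, HOXD10 0.12 and HOXD11 0.027. HOXD11 was 0.34 with spot means and 0.0047 in the authors' value table. The mean over both HOXA9 probes was 0.12. With an array left out, HOXB9 ran from -0.17 to 0.060, HOXD10 from -0.23 to 0.072, HOXD11 from -0.094 to 0.093 and HOXA9 (EMBV3_18425) from -0.45 to 0.26. Signal over background limits what can be said of every HOX probe other than HOXA7, HOXB4, HOXB9 and HOXC4, and detection of the others followed the threshold. At 5 median absolute deviations 6 probes were above the control at 10 months, 5 at 16 months and 4 genes at both ages. Against the highest control spot it was 4 probes at 10 months, 5 at 16 months and 4 genes at both. With spot means it was 11 genes, among which were the 7 of the main setting. Each array holds both ages, so the ratio already pairs them by array. Pairing by bull was not possible, since the labels do not tie an array to a bull.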

Other observations

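A probe above the negative control at both ages on all 4 arrays was found for 7 of 24 HOX genes (29.2%). The share was 59.2% of all 15229 annotated genes. Within 10 protein-coding genes of a cluster in the RefSeq order, 61 genes have their current RefSeq symbol on the array. Of these 61, 42 had such a probe (68.9%). Genes on the array under an older symbol, such as KIAA1715 (now LNPK) and ATP5G3, are not among the 61. The differences were not tested, and the count over the whole window was added after the data were seen. Several genes have more probes than others, which raises their chance of a call. A shorter list named 19 flanking genes on the array, KIAA1715 and ATP5G3 included, of which 15 had such a probe. Those without were EVX1, a homeobox gene beside HOXA, JAZF1, TTLL6 and SMUG1. Among direct neighbours of a cluster, SKAP2 beside HOXA, CALCOCO1 beside HOXC and MTX2 beside HOXD were above the control in all readings, and TTLL6 beside HOXB and SMUG1 beside HOXC were not. Fitted log2 ratios of the 17 tested genes of that list ran from -0.22 (ATP5G3, now ATP5MC3) to 0.23 (CALCOCO1), and 0 reached an unadjusted p under 0.05 (limma).

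Of the listed homeobox genes outside the HOX clusters, 20 of 57 (35.1%) were above the control at both ages on all 4 arrays, against 59.2% of all annotated genes. The 20 included the placental DLX3 and DLX4 and the BMP-responsive MSX1 and MSX2. No reading was above the control for 6 of the 24 HOX genes and for 5 of these 57, against 951 of 15229 annotated genes. The median log2 ratio over 47 tested homeobox genes was 0.03, and 0 passed the adjusted test (limma). The ends were PITX3 at 0.42 ± 0.19 and SIX5 at -0.33 ± 0.14. At an unadjusted p under 0.05, 1 gene was higher (EMX1, at 0.32 ± 0.14) and 1 lower (SIX5). Of all tested probes 2.05% were higher and 1.92% lower by that rule. PITX3 was not called by it, and its log2 ratios were -0.04, 0.05, 1.46 and 0.22 on replicates 1 to 4.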
